A study of Mus musculus with 6 samples.

Results

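The sites described here are versions of a composite ETS-CRE site of 16 bases that carry 1 base change in each arm of the CRE, at positions that do not face each other in its palindrome. Positions count from 1 at the 5′ end of the 16-mer, and the CRE fills positions 9 to 16. The members were all double substitutions at the position pairs 10+14, 10+16, 11+15 and 11+16, read from custom probes of 60 bases that start the 16-mer at base 11 (middle placement) or base 21 (inner placement) on either strand. This gave 36 variants, 9 for each position pair, out of 1080 doubles of the site, and 144 probes out of 6889 custom sequences. A change is written as the unmutated base, its position and the new base, so G10T+A16G changes G to T at position 10 and A to G at position 16.

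The study applied DNA-binding domains of 2 mouse transcription factors, GABPα and CREB1, to protein binding microarrays, on which a tagged protein held by a double-stranded probe is read as fluorescence. There were 3 groups of 2 arrays each. In the first group, GABPα with glutathione S-transferase (GST) fused to its N terminus was made from 570 ng of plasmid. In the second, 66 ng of a plasmid for the CREB1 bZIP domain without GST was added to the same 570 ng, so that the signal was that of GABPα beside CREB1. In the third, GST-tagged CREB1 was made alone from 570 ng of plasmid. All proteins came from a cell-free translation reaction of 250 µl run at 37 °C for 2 h, of which 230 µl was applied. These are called GABPα alone, CREB1 alone and, for the mixed reaction, GABPα with CREB1.

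GABPα belongs to the ETS family of transcription factors, whose members recognise a GGAA core. CREB1 is a bZIP factor that binds DNA as a dimer, with each monomer contacting one arm of the palindromic cAMP response element (CRE). In the composite site the ETS part lies just before the CRE, so that both factors can be brought next to each other.

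Shown first are the unmutated 16-mer, with its CRE in capitals, and the members on which the results below turn, with the 2 changed bases in capitals. They hold the weakest and strongest members for CREB1 (A11C+A16C and G10T+A16G), the weakest for GABPα (G10C+T14G), and members that carry the same CRE bases on opposite strands.
unmutated: accggaagTGACGTCA
G10T+A16G: accggaagtTacgtcG
A11C+A16C: accggaagtgCcgtcC
G10C+T14G: accggaagtCacgGca
A11C+C15G: accggaagtgCcgtGa
G10A+T14G: accggaagtAacgGca
A11C+C15T: accggaagtgCcgtTa
G10T+T14A: accggaagtTacgAca
A11T+C15A: accggaagtgTcgtAa
G10A+T14A: accggaagtAacgAca
A11T+C15T: accggaagtgTcgtTa
Read on the opposite strand, the CRE of A11C+C15T is tAacgGca, which is also the CRE of G10A+T14G, and in the same way each of the 9 variants at 10+14 shares its 8 CRE bases with a variant at 11+15.

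All 36 members kept bases 1 to 9 and with them the GGAA core, which 55.2% of all doubles held on either strand. Both CRE arms, positions 9 to 12 and positions 13 to 16, were changed in 36 of 36. The letters TGAC or their complement GTCA were searched on both strands of the 16-mer, not of the whole probe. They were found in 6 of 36 members (16.7%) against 88.0% of all doubles. In these 6, all with G10C, the letters GTCA stood at positions 8 to 11, which is 1 base before the first arm's own frame. The neighbouring probe bases complete TGAC in the inner forward and middle reverse probes of every member and of the unmutated site. They also complete TGAC in middle forward probes with A16T, and GTCA in inner reverse probes with C15G. Whether this bears on the signals or on differences between placements was not tested. As examples of whole probes, those of the unmutated site are shown with the 16-mer in capitals, and those of the weakest and strongest members for CREB1 with the changed bases in capitals.
unmutated, middle forward: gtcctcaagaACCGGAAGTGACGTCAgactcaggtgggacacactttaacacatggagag
unmutated, inner reverse: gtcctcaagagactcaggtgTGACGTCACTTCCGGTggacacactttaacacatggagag
G10T+A16G, middle forward: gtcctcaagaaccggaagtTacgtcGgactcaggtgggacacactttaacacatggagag
A11C+A16C, middle forward: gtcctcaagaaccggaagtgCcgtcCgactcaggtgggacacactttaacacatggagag

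A variant's level is given as the geometric mean of its processed intensity over the 4 placements, and its effect as its log2 intensity less the unmutated site's in the same placement and array, averaged over the 4 placements. A member probe had a median of 24 spots. The 2 arrays of a group correlated over the custom sequences at r = 0.997 for both GABPα groups and 0.993 for CREB1 alone. Separate protein reactions for the 2 arrays are not stated in the labels, so p-values measure only the spread between arrays, which may be technical. Replicate 1 of both GABPα groups lay on 1 slide and replicate 2 on another, while each CREB1 array had a slide of its own. The unmutated site had levels of 2639 and 5377 with GABPα alone, 4733 and 5553 with CREB1 added, and 47306 and 44878 with CREB1 alone.

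CREB1 alone bound every member less than the unmutated site. The effects of the 36 members ran from -4.60 to -1.94, with a median of -3.59. All 36 were lower by limma with Benjamini-Hochberg adjustment (adjusted p under 0.05), against 78.8% of the 1128 single and double variants tested. On the CREB1 arrays, A11C+A16C gave levels of 1401 and 2562, against 47306 and 44878 for the unmutated site. G10T+A16G gave 10865 and 13361. Both arrays thus placed even the best-bound member well below the unmutated site.

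The effect of A11C+A16C was -5.08 and -4.13 on the 2 arrays, a mean of -4.60 ± 0.67 (SD, n = 2). A floor was set at each array's lowest signal above background (1738 and 1607), and lower signals were raised to it. A11C+A16C was then at least 20.4-fold lower than the unmutated site. With the same floor A11C+A16T (measured at -4.43 ± 0.55, SD, n = 2) was at least 19.6-fold lower and G10A+T14G (-4.45 ± 0.58, SD, n = 2) at least 19.1-fold, so that the order of these 2 turned. At the other end stood G10T+A16G, at -2.12 and -1.75 on the 2 arrays (mean -1.94 ± 0.26, SD, n = 2), a measured 3.82-fold loss. Part of the unmutated site's reverse spots were saturated on these arrays, so the losses of CREB1 may be understated. A11T+C15A at -2.51 ± 0.26 (SD, n = 2) and G10T+A16T at -2.59 ± 0.39 (SD, n = 2) were the next least affected. A11C+A16C and G10T+A16G did not overlap between arrays, whereas the 3 lowest members lay within each other's spread.

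Array 1 gave a lower effect than array 2 in 36 of 36 members, with medians of -4.02 and -3.19. The members kept nearly the same order on both (Pearson r = 0.98, Spearman rho = 0.98 over the 36 members, which share arrays, singles and the unmutated site). The fit gave 1 pooled standard error of 0.13 to every effect, which is smaller than the spread of many members on these arrays. With the CREB1 arrays fitted alone, 36 of 36 were still lower. All 4 placements were above background on both arrays for 14 of 36 members, and 237 of 288 probe measurements were above background. No member was below background in all placements on an array.

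Among the position pairs, 10+16 kept the most CREB1 signal, with a median of -3.15 and a range of -3.92 (G10A+A16C) to -1.94 (G10T+A16G). The pair 11+15 had a median of -3.53, from -4.38 (A11C+C15T) to -2.51 (A11T+C15A). The pair 10+14 had one of -3.62, from -4.45 (G10A+T14G) to -2.84 (G10T+T14A). The lowest was that of 11+16, -3.99, from -4.60 (A11C+A16C) to -3.04 (A11T+A16G). These ranges overlapped. Within them the members also ranged by the base put in. The 6 members with A11C had a median of -4.21 (range -4.60 to -3.84), whereas the 6 with G10T had a median of -2.87 (range -4.05 to -1.94). In the other arm, the 3 members with T14G had a median of -4.19, the 3 with C15A one of -2.97 and the 6 with A16G one of -3.09. The singles of these were -2.45 for A11C, -0.62 for G10T, -2.00 for T14G, -0.36 for C15A and -0.44 for A16G. These medians did not follow the order of the singles throughout, but they rest on different partner changes. Members with G10A had a median of -3.84 and those with A11G one of -3.62, with singles at -1.34 and -1.49. Beside the partners they share, the A11G members were the lower. They stood at -4.09 against -3.92 with A16C, -3.19 against -3.15 with A16G and -3.86 against -3.76 with A16T. Likewise, members with A16C had a median of -3.96 and those with T14C one of -3.55, with singles at -0.95 and -1.31. Of these, only A16C was paired with changes at position 11. With shared partners T14C was the lower beside G10A (-4.04 against -3.92) and G10T (-3.32 against -2.91). Beside G10C it was the higher (-3.55 against -3.75). Across the 36 members the effect of the double correlated with the sum of its singles at r = 0.92 and rho = 0.945 for CREB1 alone. Each single enters several members, so this is a description only.

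Each double was weaker for CREB1 than either of its singles. All 72 differences between a member and one of its singles were negative by limma (adjusted p under 0.05), against 57.2% lower and 2.36% higher of the 2160 such differences over all doubles. Their median was -2.41 and their range -3.68 to -1.21. A11C+C15A fell by 3.68 below C15A, the largest of the 72. A11T+C15A differed least from a single, by -1.28 and -1.15 on the 2 arrays from A11T (mean -1.21 ± 0.09, SD, n = 2). Every member was therefore more than 2-fold below each of its singles for CREB1.

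The losses were also larger than the sum of the singles. The departure from additivity is the effect of the double minus the summed effects of its singles on the log2 scale. In CREB1 alone it was negative in 36 of 36 members on each array, and all 36 were called negative by limma (adjusted p under 0.05), against 24.2% negative and 7.04% positive of the 1080 doubles. The median was -1.26, with a range of -1.74 to -0.75, beside a median of -0.04 over all doubles. By array, the medians were -1.43 and -1.12. The largest departure was that of A11T+A16C, -1.79 and -1.69 on the 2 arrays (mean -1.74 ± 0.07, SD, n = 2, adjusted p = 4.59e-09 by limma), which is 3.34-fold less signal than the singles add up to. A11G+A16C at -1.65 ± 0.27 (SD, n = 2) and G10A+A16T at -1.64 ± 0.20 (SD, n = 2) came next. The smallest departures were those of A11C+C15G (-0.75 ± 0.05, SD, n = 2), A11T+C15A (-0.85 ± 0.06, SD, n = 2) and G10T+A16G (-0.88 ± 0.11, SD, n = 2).

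G10T+A16G shows the arithmetic with levels far above background. Its singles kept most of the signal, at 30096 and 29958 for G10T and 33072 and 34855 for A16G, against 10865 and 13361 for the double. A11C+A16C is the opposite case, in which A11C alone already fell to 7306 and 9677, and the double lay near the floor of the arrays. Its departure of -1.20 was -0.94 with signals under the floor raised to it. Over all members, that setting left a median of -1.25 and a range of -1.72 to -0.64. In the 14 members whose double and both singles were above background in all 4 placements on both arrays, the departures were all called negative, with a median of -1.31 and a range of -1.59 to -0.85. Of these 14, 6 were at 10+16, 4 at 11+15, 3 at 11+16 and only 1 at 10+14. Of all 837 doubles that passed the same filter, 83 were called negative (9.92%) and 55 positive.

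Doubles with both changes in 1 arm departed mostly in the other direction. At 10+11, 14+15, 14+16 and 15+16, 24 of 36 doubles were called positive and 2 negative for CREB1 alone, with a median of 0.46 and a range of -0.37 to 1.26. By pair, 7, 6, 2 and 9 of 9 were positive in that order. The pair 14+16 had a median of only 0.10, and 14+15 and 14+16 had 1 negative each. Doubles at mirror positions of both arms, at 9+16, 10+15 and 11+14, were called negative in 26 of 27, with a median of -1.41 and a range of -2.01 to -0.17. No test was made between these sets, and the members' range of -1.74 to -0.75 did not overlap that of the doubles within 1 arm.

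The measured departure differed between placements. In the middle placement, CREB1's median departure over the 36 members was -1.48 forward and -1.53 in reverse, and in the inner reverse placement it was -1.97, with 36 of 36 negative in each. In the inner forward placement the median was -0.28 and 27 of 36 were negative. By pair, 9 of 9 were negative at 10+16, 7 of 9 each at 11+15 and 11+16, and 4 of 9 at 10+14, with a median of 0.10. In the inner forward placement the 15 singles of the members had a median effect of -1.74, against -1.10, -0.65 and -0.82 in the middle forward, middle reverse and inner reverse placements. Members above background on both arrays in the inner forward placement numbered 15, and 15 of these 15 had a negative departure. In the middle forward, middle reverse and inner reverse placements 26, 36 and 29 members were above background. A double at background limits how negative a departure can be measured. The part of this in the difference between placements was not tested. G10T+A16G was the strongest member for CREB1 in all 4 placements, with effects of -1.79, -1.48, -2.53 and -1.94 in the middle forward, middle reverse, inner forward and inner reverse placements.

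Saturation moved with orientation as well. On the CREB1 arrays 23.9% and 25% of the unmutated site's spots reached saturation when it lay in the middle in reverse, and 4.44% and 25.5% for the inner reverse probe. The forward probes had 0%. An unmutated signal held down by saturation understates the effects of both singles as well as that of the double. It can therefore make a departure more negative than it was. Over the forward placements alone the median departure was -0.89, and 35 of 36 were called negative by limma (adjusted p under 0.05). The part of saturation in the difference between orientations was not tested.

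For GABPα alone the members' effects were small. They ran from -0.46 to 0.12 with a median of -0.12, and 4 of 36 members were lower and 0 higher by limma (adjusted p under 0.05), against 82.6% lower and 0.887% higher of the 1128 variants, most of which change a base among positions 1 to 9. All 36 were above background in every placement on both arrays. The lowest member was G10C+T14G, whose levels of 1929 and 3866 stood against 2639 and 5377 for the unmutated site. Its effect was -0.46 ± 0.02 (SD, n = 2, adjusted p = 5.54e-04 by limma), a 1.38-fold loss. G10C+T14C at -0.45 ± 0.01 (SD, n = 2), G10C+A16G at -0.33 ± 0.03 (SD, n = 2) and G10C+A16C at -0.31 ± 0.02 (SD, n = 2) were the other 3, so that all 4 carried G10C. This count moved with the processing, from 0 in the authors' deposited table to 13 with the 2 arrays of GABPα alone fitted by themselves. It was 2 without either of these 2 arrays and 6 without either CREB1 array.

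At the upper end for GABPα alone stood A11C+C15A at 0.12 ± 0.08, A11C+C15T at 0.10 ± 0.03 and A11G+C15T at 0.07 ± 0.04 (SD, n = 2 each), none of which passed. The pair 11+15 had a median effect of 0.01 and the pair 10+14 one of -0.20. Of the 72 differences from a single, 1 was higher (A11C+C15A against A11C, 0.21 ± 0.09, SD, n = 2, adjusted p = 0.0317 by limma) and 1 lower (G10C+T14G against T14G, -0.31 ± 0.01, SD, n = 2, adjusted p = 0.0158 by limma). Over all doubles 1.94% of such differences were higher and 38.4% lower. With the slide as a replicate block 0 were higher and 2 lower. Without either array of GABPα alone the total was 0 (1 at an unadjusted p under 0.05), without either array of GABPα with CREB1 it was 1, and without either CREB1 array 21. Departures from additivity lay between -0.12 (G10C+A16C) and 0.13 (G10A+T14A), and 0 of 36 passed by limma, against 3.33% negative and 33.1% positive of all doubles. At an unadjusted p under 0.05 the members' count was also 0. Most doubles were not above background with GABPα alone. Of the 189 that were, with both singles, in all placements on both arrays, 1 was called negative and 3 positive.

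With CREB1 in the reaction, GABPα bound each member less than the unmutated site. All 36 were lower by limma (adjusted p under 0.05), against 98.8% of the 1128 variants, with a median of -1.23 and a range of -1.70 to -0.82. G10C+T14G was again the lowest, with levels of 1371 and 1810 against 4733 and 5553 for the unmutated site (-1.70 ± 0.12, SD, n = 2). G10C+T14C at -1.57 ± 0.13 (SD, n = 2) and G10C+A16C at -1.50 ± 0.23 (SD, n = 2) followed. A11G+C15A kept the most, with levels of 2558 and 3306 (-0.82 ± 0.10, SD, n = 2), a 1.76-fold loss. A11T+C15A at -0.87 ± 0.09 (SD, n = 2) and G10T+A16G at -0.88 ± 0.12 (SD, n = 2) were next. Both of these were also among the 3 members CREB1 itself kept best.

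For GABPα with CREB1 the singles of the first arm ran from -1.16 (G10C) to -0.53 (G10T), and the second-arm singles from -0.78 (T14G) to 0.07 (C15A). Set against the second-arm single, 36 of 36 doubles were lower (median -0.99). Set against the first-arm single, 16 of 36 were lower (median -0.33). Together this made 52 of 72 lower by limma (adjusted p under 0.05), and 0 higher, against 68.7% and 0.741% over all doubles. The most negative was G10C+A16T against A16T, at -1.20 ± 0.03 (SD, n = 2). A11C+C15A stood at 0.06 ± 0.07 (SD, n = 2) from A11C, with an adjusted p of 0.361 by limma. Whether the 2 arms differ was not tested.

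Departures from additivity for GABPα with CREB1 had a median of -0.04 and a range of -0.36 to 0.26, beside a median of 0.21 over all doubles. By limma 7 members were negative and 4 positive, against 25.4% and 52.2% of the 1080 doubles. Most of the 1080 were not above background in this group. In 262 doubles, the double and both singles were above background in all 4 placements on both arrays. Of these, 32 were called negative and 60 positive, with a median of -0.002. Among the 34 members in that set 7 were negative and 3 positive. The 6 members with A11G made up 6 of the 7 negative ones, led by A11G+A16G at -0.36 ± 0.05 (SD, n = 2, adjusted p = 0.00573 by limma), A11G+C15G at -0.32 ± 0.12 and A11G+A16T at -0.32 ± 0.03 (SD, n = 2 each). The seventh was G10T+A16C at -0.19 ± 0.002 (SD, n = 2). The positive ones were G10A+T14G (0.26 ± 0.07), G10C+T14G (0.23 ± 0.06), A11C+C15T (0.22 ± 0.03) and G10A+T14C (0.20 ± 0.06; SD, n = 2 each). The count of 11 moved between 1 and 14 with the processing: it was 5 and 4 without the first and second array of this group, and 1 over the middle placements.

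The effect of a member on GABPα was compared directly with and without CREB1. Because each effect is taken within an array, scaling between arrays cancels. The effect was lower with CREB1 in 36 of 36 members by limma (adjusted p under 0.05, pooled SE 0.15), against 81.6% of the 1128 variants. Every difference also holds the change of the unmutated site, which all variants share, so the 36 calls are not separate losses of signal. With the arrays scaled as described below, the unmutated site's own signal was higher with CREB1 by 0.82 and 0.49 within the slides. The differences had a median of -1.14 and a range of -1.30 to -0.78, beside a median of -0.84 over all doubles. Only 207 of the 1080 doubles, but 34 of the members, were above background in all placements in both groups. Of the 189 doubles within positions 10 to 16, members included, 185 were above background. Among these 189, 95.2% were lower and the median was -1.09. A11C+A16C had effects of -0.15 and -0.02 with GABPα alone and -1.46 and -1.31 with CREB1, a difference of -1.30 that was -1.31 within the first slide and -1.29 within the second. G10T+A16G had the smallest difference, -0.78, which was -0.86 and -0.70 within the slides. None of the 36 members had effects that overlapped between the groups. The share of the 1128 variants without such overlap was not counted, so this is not given as a trait of the members.

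The authors' deposited table, which holds background-subtracted median intensities, gave the same direction. There A11C+A16C stood at 97.7% and 97.8% of the unmutated site for GABPα alone, and at 44.0% and 46.8% with CREB1 added. In the authors' deposited table G10T+A16G stood at 95.2% and 94.3% against 57.4% and 62.8%. With the authors' deposited table the difference was negative in 36 of 36 members, with a median of -0.96. By limma 0 of 36 passed there after adjustment and 36 of 36 at an unadjusted p under 0.05.

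The members differed little among themselves in this comparison. The medians by pair were -1.13 at 10+14, -1.12 at 10+16, -1.09 at 11+15 and -1.16 at 11+16. G10C+T14G at -1.24 and G10A+T14G at -1.21 followed A11C+A16C, while A11T+C15A at -0.81 and A11G+C15A at -0.84 followed G10T+A16G at the other end. Mirror doubles across the arms had 27 of 27 lower and a median of -1.12, and doubles that change position 12 or 13 with another base of positions 10 to 16 had 99 of 99 lower and a median of -1.11. Doubles within 1 arm had 27 of 36 lower and a median of -0.54. Of these, 15+16 had 1 of 9 lower and a median of -0.18. Over the 36 members, which share singles and the unmutated site, the difference correlated with the effect on CREB1 alone at r = 0.82 and rho = 0.70, and over the 189 doubles within positions 10 to 16 at r = 0.90 and rho = 0.80.

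Because the CRE is a palindrome, each 10+14 variant could be compared with the 11+15 variant that holds the same CRE bases turned round relative to the ETS part. The 10+14 form was lower in 5 of 9 such counterparts for CREB1 alone by limma (adjusted p under 0.05), against 65.9% of 132 such pairs, all of them lower in the first form. The largest difference was between G10C+T14G and A11C+C15G, -0.33 and -0.38 on the 2 arrays (mean -0.36 ± 0.03, SD, n = 2, adjusted p = 0.00114 by limma). The smallest was between G10T+T14G and A11C+C15A, -0.02 ± 0.004 (SD, n = 2). G10A+T14G and A11C+C15T had effects of -4.45 and -4.38, and G10T+T14A and A11T+C15A had -2.84 and -2.51. All 9 differences lay between -0.36 and -0.02 on the log2 scale, beside effects of -4.45 to -2.51.

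For CREB1 alone the difference had opposite signs over the forward and the reverse placements in 6 of 9 counterparts, and was negative over both in 3. G10C+T14G against A11C+C15G was 0.18 over the forward placements and -0.90 over the reverse ones. G10A+T14A against A11T+C15T was -0.45 forward and 0.26 in reverse. These values come from 2 placements each, and the cause was not tested.

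For GABPα alone, 6 of 9 counterparts were lower in the 10+14 form, against 63.6% of the 132 pairs (69.7% in either direction), with a median of -0.27 and a range of -0.35 to -0.01. The largest was G10A+T14G against A11C+C15T (-0.35 ± 0.01, SD, n = 2, adjusted p = 0.00127 by limma). For GABPα with CREB1, 6 of 9 were lower, against 76.5% (81.8% in either direction), led by G10C+T14G against A11C+C15G (-0.46 ± 0.02, SD, n = 2, adjusted p = 9.60e-05 by limma). The pair G10A+T14A and A11T+C15T did not pass in any group, at -0.02 for GABPα alone, 0.02 with CREB1 added and -0.09 for CREB1 by itself.

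Members at 10+16 and 11+16 have counterparts at 9+15 and 9+14, in which position 9, next to the ETS part, is changed in place of position 16. For CREB1 alone 7 of 18 counterparts changed at position 9 were lower than the member by limma (adjusted p under 0.05), with a median of -0.14 and a range of -0.50 to 0.03, against 65.9% of the 132 pairs. For GABPα alone 18 of 18 were lower, with a median of -3.45, against 63.6% of the pairs. With CREB1 18 of 18 were lower, with a median of -3.22, against 76.5%. Every member keeps the T at position 9. Whether the groups differ in this was not tested.

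Last, the signal of the members' probes was compared between the groups after each array had been scaled to its 75th percentile over 1143 sequences above background on all 6 arrays. Of 144 probes 28 were lower with CREB1 and 0 higher by limma (adjusted p under 0.05), against 3.58% lower and 6.73% higher of 10812 sequences. The median change was -0.47, beside -0.18 over all sequences. The lowest was A11C+A16T in the middle reverse placement, at -0.71 and -0.73 within the 2 slides (mean -0.72, adjusted p = 0.0235 by limma). A11C+C15G (-0.70) and A11C+A16C (-0.70) in the same placement followed, of which A11C+A16C passed (adjusted p = 0.0346 by limma). The highest were A11T+C15A inner reverse (0.05), G10T+A16G middle forward (0.02) and A11G+C15A middle forward (-0.002).

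Averaged over placements, the scaled signal of the unmutated site was higher with CREB1 by 0.82 and 0.49 within the slides. That of A11C+A16C differed by -0.49 and -0.81, and that of G10T+A16G by -0.05 and -0.21. The count of 28 rested on the scaling and the fit: with the slide as a block it was 0 (88 at an unadjusted p under 0.05), with no scaling 0 (0 unadjusted), and with the percentile over all spots 144. The scaling also shifted all sequences: their median change was -1.11 with the percentile over all spots, -0.02 with the array median and -0.39 with no scaling, beside -1.40, -0.31 and -0.68 for the members' probes. With each of the 4 arrays left out in turn it was 0 by limma, with 55 to 105 of 144 probes at an unadjusted p under 0.05.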

How the data were processed

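The values used are intensity per spot in 1 colour, deposited as scanner output of Agilent Feature Extraction 12.0.1.1 per the file headers, with the software's background subtracted and a spatial trend removed. The authors' deposited table of values holds background-subtracted median intensity on a linear scale and met its recomputation from the scanner files within 0.01 for all 6891 entries of each array. From the deposited processed intensity, log2 was taken here and averaged over a sequence's spots, without control spots and spots marked as outliers (2.26% to 4.55%). Above background means that more than 0.5 of a sequence's spots passed the software's own test for being well above it.

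Tests used limma 3.58.1 in R 4.3.3 with the data.table package (version 1.17.8), Benjamini-Hochberg adjustment and a threshold of 0.05. Effects, differences from singles, departures and counterparts were fitted on all 6 arrays with group means, and both comparisons with CREB1 on the 4 GABPα arrays. In data simulated for the comparison of 1128 variants with and without CREB1, the test recovered 43.0% of changes of 0.5 and 95.0% of changes of 1 (log2), with 9 false calls among 928. For the departures of CREB1 alone over 1080 doubles it recovered 29.0% and 96.0%, with 5 false calls among 880. Both simulations drew independent noise for each variant and array, with a spread per variant pooled over the groups. They held no background floor, no saturation and no shift shared by the variants of an array. These rates may therefore not hold for the measured values. Precision is limited by the number of arrays.

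The members, lists and tests were chosen with earlier results of these data known. Named are the 3 lowest and 3 highest members of each result and group, the lowest and highest for CREB1 in each position pair, their singles, and any counterparts; the other members called for GABPα were named after their values were seen. Replicate numbers mark the slide for the GABPα arrays, per the file headers. The deviations of same-numbered arrays correlated at -0.37 between the GABPα groups, 0.33 between GABPα alone and CREB1 alone, and -0.53 between GABPα with CREB1 and CREB1 alone.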

Additional observations from a re-analysis of the deposited data

Results flagged for a closer look

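The effect of the members on GABPα differed between the reaction with CREB1 and the reaction without it, by a direct test of the difference (limma, adjusted p under 0.05, 4 arrays). It was lower with CREB1 in 36 of 36 members, against 81.6% of the 1128 single and double variants tested. All of these differences share the unmutated site, whose scaled signal was itself higher with CREB1 by 0.82 and 0.49 within the slides. With the authors' deposited table the direction was the same, but no member passed after adjustment. The most negative differences on the log2 scale were those of A11C+A16C (-1.30), G10C+T14G (-1.24) and G10A+T14G (-1.21). The least negative were those of G10T+A16G (-0.78), A11T+C15A (-0.81) and A11G+C15A (-0.84).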

How the results depend on the processing

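The counts of 36 effects and 72 differences from singles for CREB1 alone, and of 36 effects for GABPα with CREB1, were the same under each alternative run. The 36 departures of CREB1 alone were 35 in the forward and in the inner placements and 36 otherwise. With the slide or replicate number as a block no count moved by over 1.5 times except that of changed signals (28 to 0), and crossed pairing, chosen after seeing the data as was the background floor, gave 36 differences in effect and 0 changed signals. The block also ended the 1 higher difference from a single in GABPα alone (0 higher, 2 lower). The difference in effect with CREB1 was called in 36 of 36 except with the authors' table (0, and 36 unadjusted). Where counts moved, the cause was not tested.

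For effects of GABPα alone (4 called), normexp background and an intensity trend gave 2 each, the authors' table and the middle placements 0 each (0 unadjusted), the median over spots 8, forward placements 7, inner placements 11, own arrays 13, and leaving out an array 2 to 6. For its differences from singles (2), the authors' table (0 unadjusted), normexp (1 unadjusted), outlier spots kept (3 unadjusted) and middle placements (2 unadjusted) gave 0, the median over spots and the forward placements 7 each, own arrays 17, the trend 1, and leaving out an array 0 (1 unadjusted) to 21, the 21 without either CREB1 array. Its departures (0) numbered 3 in forward and 2 in inner placements. For departures of GABPα with CREB1 (11), normexp gave 6, the authors' deposited values 4, outlier spots kept 7, reverse placements 7, middle placements 1, and leaving out an array 4 (without its second array) to 14. Counterparts called numbered 1 (GABPα alone) and 3 (GABPα with CREB1) in forward placements, and 1, 3 and 3 (CREB1 alone) in middle placements.

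Signs turned in 35 cases, of which 5 had a call in either setting: G10C+T14A against A11T+C15G with CREB1 (0.055) and G10C+T14G against A11C+C15G in CREB1 alone (0.18) in forward placements, and in reverse placements G10A+T14A against A11T+C15T with CREB1 (-0.19) and in CREB1 alone (0.26) and G10T+T14C against A11G+C15A in CREB1 alone (0.0093). The other 30 were never called. G10A+T14A against A11T+C15T in GABPα alone was 0.0028 with the authors' values, 0.17 forward, 0.12 middle, 0.0098 with normexp and -0.11 to 0.074 with an array left out (0.074 without the second of its own), and with CREB1 -0.022 with the authors' values, -0.014 with the median over spots and -0.012 with normexp. G10A+T14C against A11G+C15T was 0.26 reverse and 0.043 inner in CREB1 alone and 0.023 forward with CREB1. G10A+T14G against A11C+C15T in CREB1 alone was 0.12 forward and 0.21 middle. G10C+T14A against A11T+C15G in GABPα alone was 0.0035 with the authors' values, 0.088 forward, 0.023 with the median over spots and 0.037 middle. G10T+T14A against A11T+C15A was 0.025 inner and -0.028 to 0.0058 with an array left out (0.0058 without the first of its own) in GABPα alone and 0.031 middle with CREB1. G10T+T14G against A11C+C15A in CREB1 alone was 0.023 with the authors' values, 0.029 inner, 0.070 with the median over spots, 0.0076 with normexp, 0.039 with outlier spots kept and 0.088 reverse. Departures in GABPα alone turned for G10A+A16G (-0.053 middle), G10A+T14C (-0.035 reverse), G10C+T14G (0.043 forward) and G10T+A16C (0.017 reverse). Changed signals (28) numbered 0 with normexp (19 unadjusted), the authors' table (0 unadjusted), no scaling and each array left out, 46 with outlier spots kept, 93 with dim sequences left out, 4 with all 6 arrays, 64 with the trend, 144 with the percentile over all spots, 2 with the array median and 17 with quantile scaling.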
